A study of Solanum lycopersicum with 6 samples.

Results

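Abscisic acid (ABA) synthesis and breakdown was examined in tomato fruit through 6 gene models, 2 loci for 9-cis-epoxycarotenoid dioxygenase (NCED) and 4 listed as ABA 8'-hydroxylases of the CYP707A family, out of 35768 gene models measured. They were picked out in the table by identifier, from a list drawn up with earlier results of these data known. The libraries came from the fruit wall (pericarp) of the shoulder, the region near the stalk, of Solanum lycopersicum cultivar Ailsa Craig at 30 DPA (days post anthesis). There were 3 wild type (WT) libraries and 3 libraries of slgols2 fruit, a knock-out made by CRISPR-Cas9 editing, from greenhouse plants kept under 16 h of light at 25 °C and 8 h of dark at 18 °C. The labels do not give the edited alleles, the number of independent lines or the plants behind each replicate, so a p-value here reflects only how far these libraries scattered, which may be technical scatter.

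ABA is made from carotenoids of the plastid. NCED cleaves a 9-cis-epoxycarotenoid to xanthoxin, the committed step of the pathway, and xanthoxin is turned into ABA in the cytosol by a short-chain dehydrogenase and an aldehyde oxidase. CYP707A enzymes, cytochromes P450, hydroxylate ABA at its 8' carbon and so start its main route of breakdown. ABA binds receptors of the PYR/PYL family, which then inhibit PP2C phosphatases and release SnRK2 kinases to act on transcription factors of the AREB/ABF group. In tomato fruit ABA content is known to rise ahead of ripening.

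The deposited table gives identifiers without names. A RefSeq gene with the symbol NCED1 lies at the matching place on chromosome 7 for Solyc07g056570, and NCED2 lies on chromosome 8 for Solyc08g016720. CYP707A1 lies on chromosome 4 for Solyc04g078900 and CYP707A2 on chromosome 8 for Solyc08g005610. These symbols are used below. The other 2 loci, Solyc08g075320 on chromosome 8 and Solyc01g108210 on chromosome 1, had no symbol there and are given by identifier, as loci listed under the hydroxylases.

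Values are FPKM (fragments divided by the length of the gene model and the depth of the library), and the whole fragment numbers behind them were recovered from the steps between values. Depths lay between 15590000 and 17940000 fragments per library. The gene lengths behind the values had a median of 102% of the RefSeq gene span over 30 named loci, but only 15 of the 30 lay within 10% of it. For CYP707A1 and CYP707A2 the lengths were 3372 and 2912 bases, near their RefSeq spans of 3277 and 2868 bases, so any introns were counted in. Where the length includes introns, levels are understated against those of genes without introns. The locus at the place of GolS2, the symbol that matches the edited gene (galactinol synthase), had 14, 5 and 0 fragments in the WT libraries and 1, 0 and 1 in slgols2, too few to check the genotype labels. Replicate 3 of slgols2 stood apart from the other slgols2 libraries: it correlated with them at 0.849 and 0.869 across tested genes, while they correlated with each other at 0.957. Its correlations with WT replicates 1, 2 and 3, at 0.891, 0.903 and 0.878, were higher than those with its own group. For the members, the list medians and the calls, results are therefore given below without it where that turns a direction or a call.

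No difference between slgols2 and WT was detected for any of the 5 ABA metabolism loci that could be tested (limma on log2(FPKM + 1), Benjamini-Hochberg adjusted p of at least 0.509). This does not show equal levels, since the intervals given below also hold large changes. Among all 15695 tested genes 0.229% passed the adjusted threshold of 0.05. At an unadjusted p under 0.05 there were also 0 of the 5, against 12.0% of all tested genes. Limma-voom on the recovered fragments called 0 of the 5, but only 1 of 15694 genes in all, so it adds little here. The groups overlapped for all 5. Of all tested genes 19.2% had groups that did not overlap, so with only 5 loci this does not set the members apart. The log2 change was positive for 2 loci and negative for 3, with a median of -0.41 against 0.00 for all tested genes. In bulk samples, fewer cells of a type and less RNA per cell cannot be told apart.

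**Figure D1:**
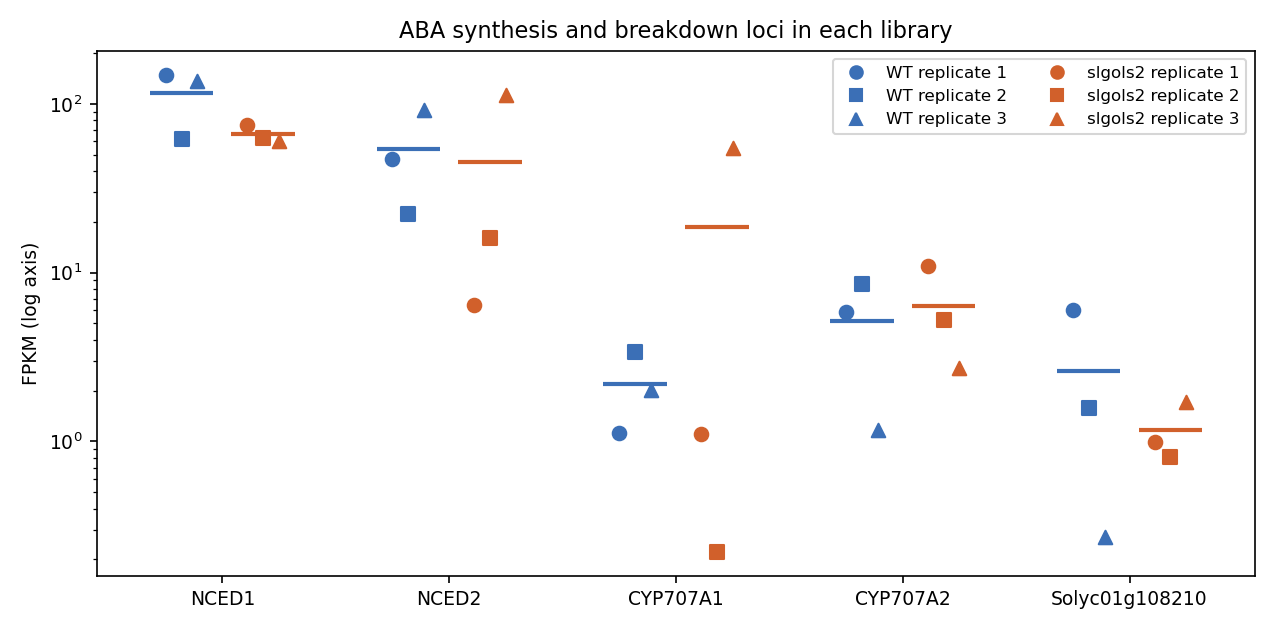
FPKM (log axis) of the 5 tested ABA metabolism loci in each library, with WT in blue, slgols2 in orange, a marker shape per replicate number and a bar at each group mean (n = 3). The orange triangle for CYP707A1 (54.8 FPKM) stands far above every other library of that locus, which reached 3.39 FPKM at most.

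NCED1 was the most abundant of the 6 loci. It is the NCED gene that is mutated in the ABA-deficient, wilting tomato mutant notabilis. Its level was 149, 61.6 and 136 FPKM in WT replicates 1, 2 and 3, and 75.1, 62.8 and 59.9 FPKM in slgols2 replicates 1, 2 and 3. The 3 slgols2 libraries lay close together near the lowest WT library, and the other WT libraries lay well above them. The mean was 116 ± 47.4 FPKM for WT and 65.9 ± 8.07 FPKM for slgols2 (SD, n = 3 each). On the log2(FPKM + 1) scale slgols2 was 0.71 below WT, a change of -0.71 with a standard error of 0.36 and a 95% interval from -1.59 to 0.17, which includes 0 (limma adjusted p = 0.509). These values rested on 1778 to 4736 fragments per library, so counting error is small beside the spread between replicates. The change was -1.11 without WT replicate 2, the low WT library, and -0.48 without WT replicate 1 (limma adjusted p = 0.29 and 0.873).

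NCED2, the second NCED locus, varied far more. It stood at 47.3, 22.4 and 91.7 FPKM in WT and at 6.45, 16.1 and 113 FPKM in slgols2, again in the order of replicates 1 to 3. Replicates 1 and 2 of slgols2 lay below all WT libraries and replicate 3 above all of them, so the mutant libraries fell on both sides of the WT range. WT averaged 53.8 ± 35.1 FPKM and slgols2 45.3 ± 59.1 FPKM (SD, n = 3 each), with a log2 change of -0.95 (standard error 1.04, 95% interval -3.47 to 1.57, limma adjusted p = 0.756). The highest slgols2 library was 17.6-fold above the lowest, against 4.09-fold within WT. Without slgols2 replicate 3 the log2 change was -2.06, and without slgols2 replicate 1 it was -0.09; neither fit passed (limma adjusted p = 0.156 and 0.986).

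NCED1 was above NCED2 in 5 of the 6 libraries. The exception was slgols2 replicate 3, where NCED1 made up 34.6% of the summed NCED level. In the other libraries its share ran from 59.8% in WT replicate 3 to 92.1% in slgols2 replicate 1. Within each WT library NCED1 was the higher of the 2, although the ranges of the 2 loci overlapped in both genotypes.

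Among the hydroxylase loci, CYP707A1 held the widest range. It was low in WT, at 1.12, 3.39 and 2.02 FPKM, and low in slgols2 replicates 1 and 2, at 1.11 and 0.222 FPKM. In slgols2 replicate 3 it reached 54.8 FPKM, from 3020 fragments. That library was 16.2-fold above the next highest, WT replicate 2, while slgols2 replicate 2 held only 12 fragments. The slgols2 mean of 18.7 ± 31.3 FPKM therefore describes no library of the group, and the WT mean was 2.18 ± 1.14 FPKM (SD, n = 3 each). The log2 change was 0.79 (standard error 1.40, 95% interval -2.59 to 4.16, limma adjusted p = 0.859). Without slgols2 replicate 3 its direction turned, to -0.92 (limma adjusted p = 0.23).

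CYP707A2 was the highest of the 4 hydroxylase loci in 3 libraries. Its levels were 5.87, 8.57 and 1.17 FPKM in WT and 11.0, 5.22 and 2.73 FPKM in slgols2. WT replicate 3 was the lowest library and slgols2 replicate 1 the highest, and the slgols2 values otherwise lay inside the WT range. The means were 5.20 ± 3.74 and 6.33 ± 4.25 FPKM in WT and slgols2 (SD, n = 3 each), with a log2 change of 0.32 (standard error 0.66, 95% interval -1.27 to 1.91, limma adjusted p = 0.879). The sign rested on single libraries: it was -0.31 without WT replicate 3 and -0.12 without slgols2 replicate 1 (limma adjusted p = 0.87 and 0.974).

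Solyc01g108210 stood at 5.97, 1.58 and 0.273 FPKM in WT, a 21.9-fold range between replicates of 1 genotype. In slgols2 it was 0.988, 0.809 and 1.72 FPKM, all inside the WT range. WT replicate 1 alone was high, at 3.47-fold the next library. The log2 change was -0.41 (standard error 0.60, 95% interval -1.85 to 1.04, limma adjusted p = 0.826), and it was 0.24 without WT replicate 1 (limma adjusted p = 0.937). Solyc08g075320 was not tested because its mean lay under 1 FPKM. A single fragment was found for it in all, in slgols2 replicate 3, and it was listed at 0 in the other 5 libraries. At these depths, 3 fragments would have stood for 0.0275 to 0.0317 FPKM, so a level below that could not have been told from 0. This limit covers counting error only.

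The order of mean levels in WT was NCED1, NCED2, CYP707A2, Solyc01g108210, CYP707A1 and Solyc08g075320. Neighbours in this order overlapped between libraries, except NCED2, whose lowest WT value of 22.4 FPKM lay above the highest WT value of CYP707A2, 8.57 FPKM, and Solyc08g075320, which was at 0. In slgols2 the mean of CYP707A1 followed that of NCED2, through replicate 3 alone.

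Summed per library, the NCED loci gave 197, 84.0 and 228 FPKM in WT and 81.5, 78.9 and 173 FPKM in slgols2. The hydroxylase loci summed to 13.0, 13.5 and 3.46 FPKM in WT and 13.1, 6.25 and 59.3 FPKM in slgols2. Both sums overlapped between the genotypes. The ratio of the NCED sum to the hydroxylase sum was 15.2, 6.20 and 66.0 in WT and 6.22, 12.6 and 2.92 in slgols2, so its highest value was in WT replicate 3 and its lowest in slgols2 replicate 3. In fragments rather than FPKM, which leaves gene length out, the ratio was 7.67, 3.51 and 35.9 in WT and 3.69, 7.34 and 1.53 in slgols2, with the same libraries at both ends. These are transcript ratios, and no ABA content was measured.

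The hydroxylase that led the sum changed from library to library. CYP707A2 made up 63.3% of it in WT replicate 2, 84.0% in slgols2 replicate 1 and 83.5% in slgols2 replicate 2. CYP707A1 led with 58.3% in WT replicate 3, where the whole sum was low, and with 92.5% in slgols2 replicate 3. In WT replicate 1 Solyc01g108210 and CYP707A2 held nearly equal shares of 46.1% and 45.3% in FPKM. In fragments, which leave gene length out, they were further apart there, at 441 and 298 of 805.

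**Figure D2:**
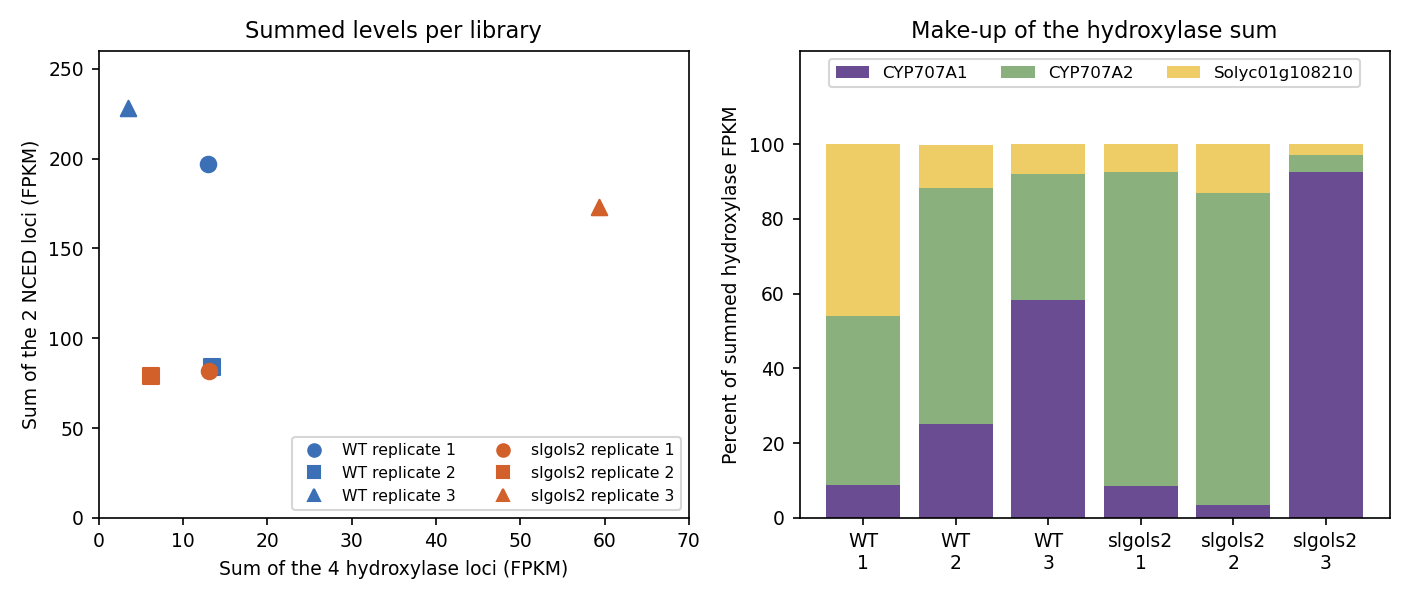
Left, the summed FPKM of the 2 NCED loci against that of the 4 hydroxylase loci, with 1 point per library (colours and shapes as in the legend). Right, the percent of the hydroxylase sum from each locus, where CYP707A1 fills 92.5% of the bar of slgols2 replicate 3 and 3.55% of that of slgols2 replicate 2; Solyc08g075320, at 0.017% or less, is not drawn.

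The spread between replicates was large against genes at large for the tested loci other than NCED1, whose spread was less unusual. The pooled SD of log2(FPKM + 1) within genotypes was 2.14 for CYP707A1, 1.59 for NCED2, 0.99 for CYP707A2, 0.90 for Solyc01g108210 and 0.51 for NCED1. The median over all 15695 tested genes was 0.28. CYP707A1 ranged 247-fold within slgols2, where replicate 3 alone was high, and 3.02-fold within WT. Of all tested genes, 99.7% had a smaller spread than CYP707A1, 99.1% than NCED2, 95.5% than CYP707A2, 94.0% than Solyc01g108210 and 79.0% than NCED1. Set against the 1000 genes nearest in mean level, the shares were 99.8%, 98.6%, 96.4%, 94.9% and 71.2% in the same order. They describe these 6 libraries and are no test.

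**Figure D3:**
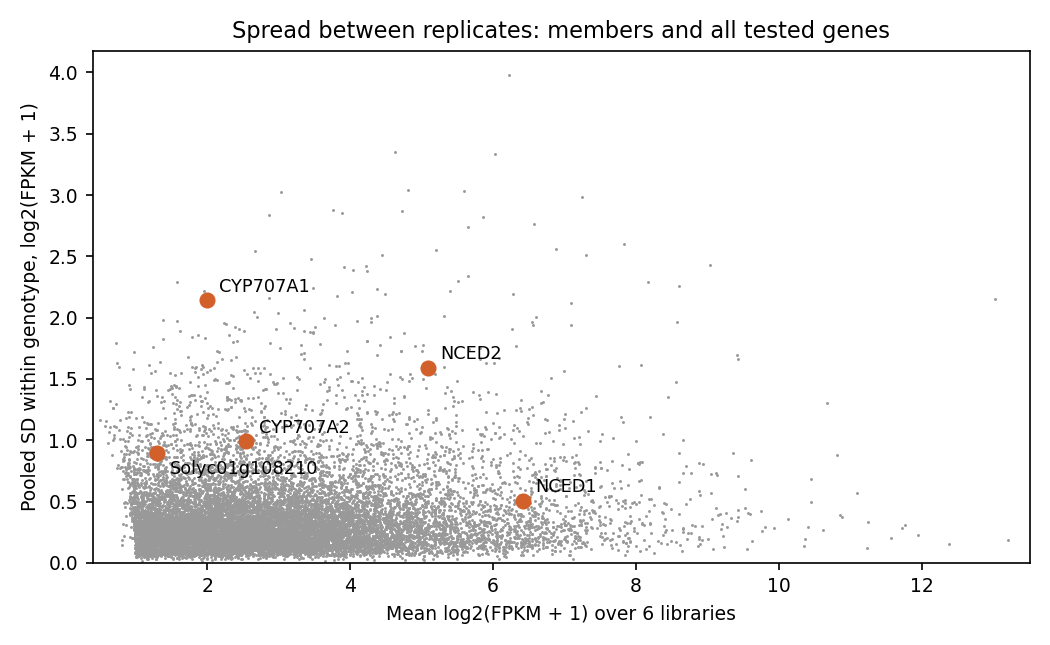
Pooled SD within genotype against mean log2(FPKM + 1), with a grey point for each tested gene and the 5 tested ABA metabolism loci in orange. CYP707A1 (SD 2.14) and NCED2 (SD 1.59) lie above nearly all grey points, and NCED1 (SD 0.51) lies among them.

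Across the 6 libraries the 5 loci did not move as 1 group. Pearson's r of log2(FPKM + 1) between pairs ran from -0.85, for NCED2 and CYP707A2, to 0.62, for NCED2 and CYP707A1. NCED1 and NCED2 had an r of 0.35, but a Spearman rank correlation of -0.14. For NCED2 with CYP707A2 and with CYP707A1 the rank correlation kept its sign, at -0.77 and 0.77. The 10 values of r are descriptions over 6 libraries of 2 genotypes, which share their depth. Among the 15690 other tested genes, the pattern most like NCED1 was that of Solyc08g083150 (r = 0.9980). That gene was low, at 0.749 to 2.96 FPKM over the libraries. The pattern most like CYP707A1 was that of Solyc08g005690 (r = 0.9996, 46.5 FPKM in slgols2 replicate 3 and 17.6 to 24.3 FPKM elsewhere). An r of at least 0.95 was reached by 23 genes for NCED1 and by 238 for CYP707A1, whose pattern is mostly 1 high library.

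The lists of other tissues and states moved with some of these libraries. The heat response list, 8 small heat shock protein loci, summed to 21158 and 13707 FPKM in slgols2 replicates 1 and 2, the libraries with the lowest NCED2, but to 455 FPKM in slgols2 replicate 3 and 525 to 1080 FPKM in WT. Of its 7 tested loci all 7 had positive log2 changes and 0 passed the threshold (limma, 2 at an unadjusted p under 0.05). The ripening stage list of 9 loci summed to 56.7 FPKM in WT replicate 3, where CYP707A2 and Solyc01g108210 were lowest, and to 105 to 324 FPKM elsewhere. ACO1, an ethylene synthesis gene, stood at 7.18 FPKM in WT replicate 3 and 25.1 to 251 FPKM elsewhere. Loci of the list at lower levels showed another pattern. The ripening regulators RIN and NOR lay at 0.339 to 0.835 and 0.522 to 1.69 FPKM in WT against 0.0784 to 0.160 and 0.0211 to 0.0831 FPKM in slgols2. The ethylene synthesis genes ACS2 and ACS4 lay at 2.66 to 7.40 and 0.290 to 0.984 FPKM in WT against 0.724 to 2.58 and 0.0204 to 0.229 FPKM in slgols2. Few fragments lay behind these low values. In slgols2 replicates 1 to 3 RIN had 10, 16 and 8, NOR 2, 1 and 4, and ACS4 7, 11 and 1. RIN, NOR, ACS2 and ACS4 were picked out after their values were seen. In all 4 the slgols2 libraries lay below the WT libraries without overlap, for ACS2 only by 2.58 against 2.66 FPKM. Among all tested genes 19.2% had groups that did not overlap, in either direction. Of the 4, only ACS2 had a mean high enough to be tested, and it did not pass (limma adjusted p = 0.397). Other loci of the list went the other way, and 3 of its 4 tested loci had positive log2 changes. Solyc09g089580 lay at 21.3 to 42.6 FPKM in WT and 46.9 to 75.5 FPKM in slgols2, without overlap (limma adjusted p = 0.394). Psy1 had a log2 change of 0.22, with overlapping groups (limma adjusted p = 0.651). PG2, the polygalacturonase of ripe fruit, was at 0 in all libraries but WT replicate 3, where it stood at 0.0091 FPKM. The seed list of 12 loci summed to 57.1 FPKM in WT replicate 3 and 100 FPKM in slgols2 replicate 2, and to 2.01 to 15.1 FPKM elsewhere, with 3 oleosin and storage protein loci at 0 throughout. The epidermis and cuticle list of 6 loci summed to 504 to 576 FPKM in WT and to 128, 176 and 362 FPKM in slgols2 replicates 1 to 3. The part of these tissues and states in the values of the ABA loci was not tested.

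No other step of ABA synthesis passed the test. Of 9 listed loci for other synthesis steps and for conjugation, 7 were tested, 4 with positive and 3 with negative log2 changes, and 0 passed the threshold. The median log2 change was 0.01, and -0.16 without slgols2 replicate 3. ZEP, zeaxanthin epoxidase, which makes the epoxycarotenoid precursors, stood at 26.7, 27.9 and 45.9 FPKM in WT and 49.1, 41.7 and 23.4 FPKM in slgols2, with overlapping groups (limma adjusted p = 0.886). NXD1, which is needed for the precursor neoxanthin, was at 3.94, 3.22 and 3.08 FPKM in WT and 2.51, 2.20 and 1.89 FPKM in slgols2. Its groups did not overlap, but the log2 change of -0.46 with a standard error of 0.15 did not pass (limma adjusted p = 0.328).

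UGT75C1 is a glucosyltransferase that conjugates ABA to its glucose ester, a second way of lowering active ABA. Its levels were 23.1, 10.6 and 18.2 FPKM in WT and 6.28, 6.53 and 43.7 FPKM in slgols2. As for NCED2 and CYP707A1, slgols2 replicate 3 was the highest library, and as for NCED2, slgols2 replicates 1 and 2 lay below all WT libraries. The log2 change was -0.37 (standard error 0.74, limma adjusted p = 0.877).

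Downstream of ABA, 42 loci of 5 further lists were examined and 28 were tested. Over these and the synthesis list, 0 of 35 tested loci passed the adjusted threshold, against 0.229% of all tested genes. Limma-voom called 0 of the 35, but only 1 of 15694 genes in all. In the limma fit 7 of the 35 had an unadjusted p under 0.05, against 12.0% of all tested genes, and 5 of these 7 were PP2C phosphatases. In the log2 mean 20 were higher in slgols2 and 15 lower, and 50.1% of all tested genes were higher. The groups did not overlap for 8 of the 35 (22.9%), close to the 19.2% of all tested genes. The lists rest on identifiers recalled for each function, and of their 51 loci 14 carried a RefSeq symbol, each at the matching place.

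Most of the non-overlapping loci were PP2C phosphatases, the negative regulators of ABA signalling, whose genes are commonly induced by ABA. All 10 listed loci were tested, 3 with positive and 7 with negative log2 changes (median -0.40). The groups of 6 of the 10 did not overlap, against 19.2% of all tested genes, and these split evenly, 3 lower and 3 higher in slgols2. The list was not tested as a set. Solyc05g052980 was the highest of them, at 92.5, 74.3 and 157 FPKM in WT and 28.5, 25.9 and 38.5 FPKM in slgols2. All 3 slgols2 libraries lay below all WT libraries, replicate 3 included. The log2 change of -1.72 (standard error 0.32) did not pass over all genes (limma adjusted p = 0.153). PP2C-2 (Solyc03g096670) stood at 58.2, 46.1 and 29.5 FPKM in WT and 3.11, 4.95 and 18.6 FPKM in slgols2, with slgols2 replicate 3 nearest to WT. Its log2 change was -2.49 (standard error 0.60, limma adjusted p = 0.218), and without slgols2 replicate 3 it was -3.15 and passed (limma adjusted p = 0.0298). PP2C-1 (Solyc03g121880) also passed without that library (log2 change -0.92, limma adjusted p = 0.0451). That fit passed 279 of all 15695 tested genes, against 36 with every library kept. Its slgols2 libraries were replicates 1 and 2, those with the high heat response sums of 21158 and 13707 FPKM. Solyc06g051940, the second highest, was at 44.9, 32.2 and 57.9 FPKM in WT and 25.2, 12.4 and 53.1 FPKM in slgols2, with overlapping groups (limma adjusted p = 0.613). Of the 3 loci that lay higher, Solyc12g096020 stood at 14.5, 17.5 and 16.5 FPKM in WT and 24.0, 27.0 and 29.5 FPKM in slgols2, with a log2 change of 0.69 (standard error 0.17, limma adjusted p = 0.213). Solyc08g062650 and Solyc02g083420 had log2 changes of 0.39 and 0.25 (limma adjusted p = 0.416 and 0.53). The FPKM sum of the list was 301, 267 and 371 in WT and 165, 159 and 216 in slgols2.

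The 14 listed receptor loci had 7 tested members. All 7 had positive log2 changes, against 50.1% of all tested genes, with a median of 0.22. None passed (limma adjusted p of at least 0.534, with 0 at an unadjusted p under 0.05). The groups of every one overlapped, while 19.2% of all tested genes had groups that did not. Solyc08g082180 was the most abundant, at 32.5, 35.7 and 44.6 FPKM in WT and 42.1, 61.8 and 44.7 FPKM in slgols2, followed by Solyc06g061180 at 18.4 to 26.9 FPKM in WT and 20.5 to 25.7 FPKM in slgols2. Among these 7 the largest log2 changes were 0.66 for Solyc06g050500 and 0.63 for Solyc10g085310, with standard errors of 0.51 and 0.35. A further 2 receptor loci were at 0 in every library. Solyc03g095780, under the minimum mean for testing, had 1, 0 and 1 fragments in WT and 4, 17 and 23 in slgols2, without overlap, at up to 2.66 FPKM.

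The SnRK2 kinase list had 3 of 6 tested members higher and 3 lower, with a median log2 change of 0.00. Its most abundant loci, Solyc01g103940 and Solyc02g090390, moved apart in slgols2 replicate 3, to 58.3 and 9.72 FPKM, from WT ranges of 32.3 to 33.9 and 18.4 to 22.0 FPKM. In slgols2 replicates 1 and 2 Solyc01g103940 lay below its WT range, at 28.4 and 28.3 FPKM. Solyc02g090390 lay above its own there, at 25.0 and 26.3 FPKM. Among the bZIP factors, 2 of 6 loci were tested. ABF4 (Solyc11g044560, with the synonym SlAREB2) stood at 50.3, 49.2 and 46.0 FPKM in WT and 27.5, 31.8 and 37.8 FPKM in slgols2, without overlap, and its log2 change of -0.58 with a standard error of 0.18 did not pass (limma adjusted p = 0.306). Solyc10g081350 was at 2.65 to 3.37 FPKM in WT and 2.73 to 3.85 FPKM in slgols2. AREB1 stayed under 1 FPKM in all libraries.

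**Figure D4:**
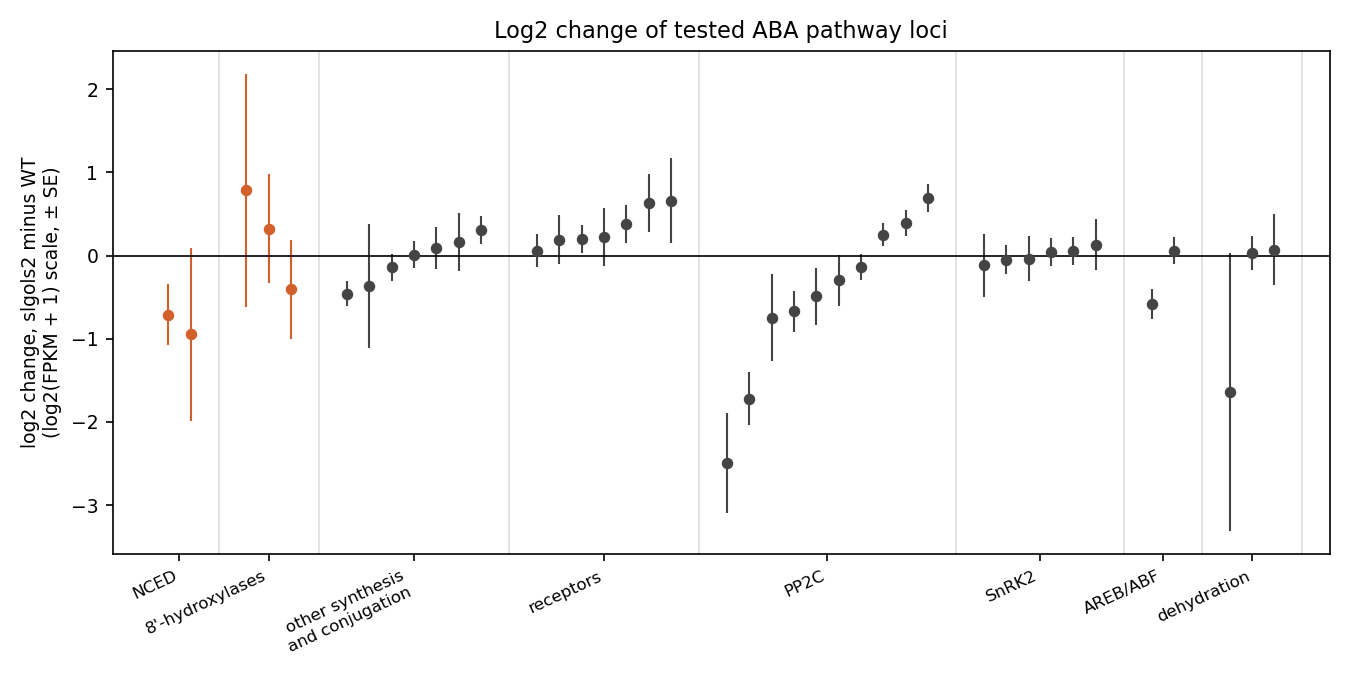
Log2 change (slgols2 minus WT, log2(FPKM + 1) scale, error bars are standard errors, 3 libraries per genotype) of each tested locus, with NCED and hydroxylase loci in orange and the other ABA pathway loci in dark grey, sorted within each list. CYP707A1 and NCED2 carry wide bars (standard errors 1.40 and 1.04), and the lowest point is PP2C-2 at -2.49.

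The dehydration markers, genes that respond to ABA and water loss in many tissues, had 2 of 3 tested members higher (median log2 change 0.03, which was -0.36 without slgols2 replicate 2). TAS14, a dehydrin, stood at 631, 34.9 and 391 FPKM in WT and at 637, 14.3 and 29.3 FPKM in slgols2. It was high in WT replicates 1 and 3, the WT libraries with the higher NCED1 and NCED2, but also in slgols2 replicate 1, where NCED2 was lowest. ASR1, an abundant ripening and stress protein, lay between 4707 and 5958 FPKM in all 6 libraries. Solyc01g109920 was at 0.542 to 1.83 FPKM in WT and 0.439 to 2.70 FPKM in slgols2.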

How the data were processed

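The authors deposited FPKM values, per the file headers, for 35768 gene models in 6 libraries, grouped here by title. The submitters' processing notes name HISAT2 2.1.0 and DESeq 1.38.3. Counting tool, build, annotation and strand setting were not given in the sources used here, so overlapping genes may share reads. Depth, gene lengths and fragment numbers were recovered from the steps between low values (whole in all libraries for 15694 of the 15695 tested genes, within the larger of 2e-05 fragments and 3e-07 of the number) and checked on simulated data.

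A mean of at least 1 FPKM was required for testing. Log2(FPKM + 1) values were fitted with limma 3.58.1 (R 4.3.3) on genotype with an intensity trend, two-sided, and p was adjusted by Benjamini-Hochberg over all tested genes at 0.05. Changes of low genes are understated on this scale. An exact permutation test of 3 against 3 cannot go below 0.10 and was not used.

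The members and lists were chosen with earlier results of these data known. Of the 92 loci listed, 31 had a recalled name that is a symbol in RefSeq (assembly SLM_r2.1), and all 31 lay on the same chromosome within 5% of the gene order; GolS2 was placed by its neighbours. Named loci were the members and, per ABA list, the 2 highest, the 2 with the largest change and any past the threshold; PP2C-1, 3 PP2C loci that lay higher, AREB1, Solyc03g095780 and the single ripening genes were added after their values were seen. Lists of other tissues and states are given as sums. Alternatives covered pseudocount, filter, scaling, trend, robust fit, sample weights, replicate block, recovered fragments and each library left out.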

Additional observations from a re-analysis of the deposited data

How the results depend on the processing

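None of the 5 tested ABA metabolism loci passed the adjusted threshold in any of the 16 alternatives, with limma adjusted p from 0.149 to 0.986. NCED1 and NCED2 had negative log2 changes in every alternative (-1.11 to -0.48 and -2.06 to -0.09). CYP707A1 turned to -1.06 with sample quality weights, and over the fits without 1 library it ran from -0.92 to 1.84, CYP707A2 from -0.31 to 0.76 and Solyc01g108210 from -0.99 to 0.24. Solyc01g108210 could not be fitted under a minimum mean of 5 FPKM, and Solyc08g075320 was fitted only with no filter (log2 change 0.0048, limma adjusted p = 0.943). Among the list medians, PP2C ran from -0.50 to -0.21 and the receptors from 0.16 to 0.38 over the alternatives, each keeping its sign, while the dehydration markers ran from -0.80 (minimum mean of 5 FPKM, which leaves fewer loci) to 0.23. Over all genes the number past the threshold was 36. A pseudocount of 0.1 gave 20, dropping the filter 55, a minimum mean of 5 FPKM 15 and sample quality weights 2028 (8 of them in the ABA lists, 6 of these PP2C loci). Limma-voom on recovered fragments gave 1, and fits without 1 library gave 7 to 279 (0 to 2 in the ABA lists, both without slgols2 replicate 3). The higher minimum leaves fewer genes to test; for the other settings the cause was not tested. Under the replicate block 1 gene passed and no ABA locus did; nothing shows that the numbers pair libraries, since deviations of same-numbered libraries correlated at -0.15, 0.0888 and -0.165 and 2 of 6 libraries correlated best with their own number. At these depths NCED1 rested on at least 1778 fragments per library, CYP707A1 on as few as 12.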
